A study of Mus musculus with 4 samples.

Results

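The 7 genes described here, Cd163l1, Maf, Etv5, Sox4, Sox13, Blk and Zbtb16, are known from gamma-delta T cells and from innate-like T cells such as natural killer T (NKT) cells. They were chosen by name, as all probe sets on the array whose platform symbol is 1 of these 7, which gave 24 of 45037 tested probe sets and 7 of 18193 measured genes. Expression had been measured on 4 Affymetrix mouse arrays, each with RNA of CD4+CD8+ double-positive (DP) cells. The tested arrays were 2 of DP cells from a peripheral tumor (thymoma) with Notch1-IC over-expressed, and carry the genotype label T-ALL, for T-cell acute lymphoblastic leukaemia. The other 2 were of DP cells from normal thymus, with the genotype label WT. Notch1-IC is the intracellular, active part of the Notch1 receptor. All 4 samples carry the background label WT C57/BLACK6, and mouse age, the promoter or vector behind Notch1-IC and the purification of the DP cells are not stated in the labels. The sample type label names the tumor for all 4 samples, and for the 2 normal ones this goes against their other labels, which were followed here.

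Gamma-delta T cells carry a T-cell receptor (TCR) of gamma and delta chains and branch off in the thymus before the DP stage. Part of them leave the thymus already set to make interleukin 17 (IL-17), a programme that in mice draws on the transcription factors Sox4, Sox13, Etv5 and Maf and on the kinase Blk. Zbtb16 encodes PLZF, the factor that gives NKT cells and some gamma-delta T cells their innate-like behaviour, and Cd163l1 (also called Scart1) is a scavenger-receptor-like protein found on the surface of gamma-delta T cells. Most DP cells are instead on the way to an alpha-beta TCR. Several of these genes are not restricted to such cells, since Sox4 acts widely in immature lymphocytes, Maf also in macrophages and Blk also in B cells.

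In the tumour DP cells, Cd163l1, Maf, Etv5 and Sox13 rose and Sox4 fell, while Blk was not called and Zbtb16 was measured near background only. On the most intense probe set of each gene, the fold difference of tumour over normal was 18.9 for Cd163l1, 8.71 for Maf, 3.60 for Sox13 and 2.96 for Etv5, and Sox4 was 1.55-fold lower in tumour. Of the 24 probe sets, 7 were called higher, where 11.3% of all tested probe sets were, and 6 were called lower, against 11.5% of all. A call is an adjusted p below 0.05 from limma with a variance prior that follows intensity (trend and robust), with Benjamini-Hochberg adjustment over 45037 probe sets. Counted as genes on the most intense probe set, 4 of 7 were called higher (16.3% of all genes) and 1 lower (11.7% of all genes). The median log2 fold change was 0.11 over the 24 probe sets and -0.02 over all probe sets, and 1.57 over the 7 most intense ones and 0.09 over all genes. The groups did not overlap on 9 probe sets with tumour higher, as on 27.6% of all, and on 7 with tumour lower, as on 29.1% of all.

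These calls rest on the form of the variance prior. With limma's default prior, 0 of 45037 probe sets passed, and the lowest adjusted p, 0.0684, was also that of a member. At an unadjusted p below 0.05 the default prior gave 7 member probe sets higher and 4 lower, against 5479 higher and 5858 lower among all. With each array set to its bacterial hybridization controls BioB, BioC and BioD (spike scaling), 7 members were again called higher and 6 lower. The same scaling moved the median log2 fold change of all probe sets from -0.02 to -0.63, and the split of all calls from 5084 higher and 5189 lower to 2074 higher and 11539 lower.

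Depth on an array is signal over background, and the background of an array was taken as the brightest of its 27 probe sets for Bacillus control genes. That level was 17.8 and 13.3 intensity units on the tumour arrays and 15.95 and 12.3 on the normal arrays. Of the 24 member probe sets, 10 lay above it on all 4 arrays, 11 on some and 3 on none. Of the 7 higher calls, 2 were above background on all 4 arrays and 5 on both tumour arrays but not on both normal ones. With 2 arrays a group, the number of arrays limits the precision, and nothing in the labels says that they came from separate animals, so the p-values cover no more than the scatter of these samples, and that scatter could be technical. Tissue site (peripheral tumour or thymus) and the presence of Notch1-IC cannot be told apart. The 3' to 5' ratio of control probe sets, given with Sox4 below, also differed between the groups and cannot be told apart from them. In bulk RNA, fewer cells of a type and less RNA per cell cannot be told apart either.

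**Figure D1:**
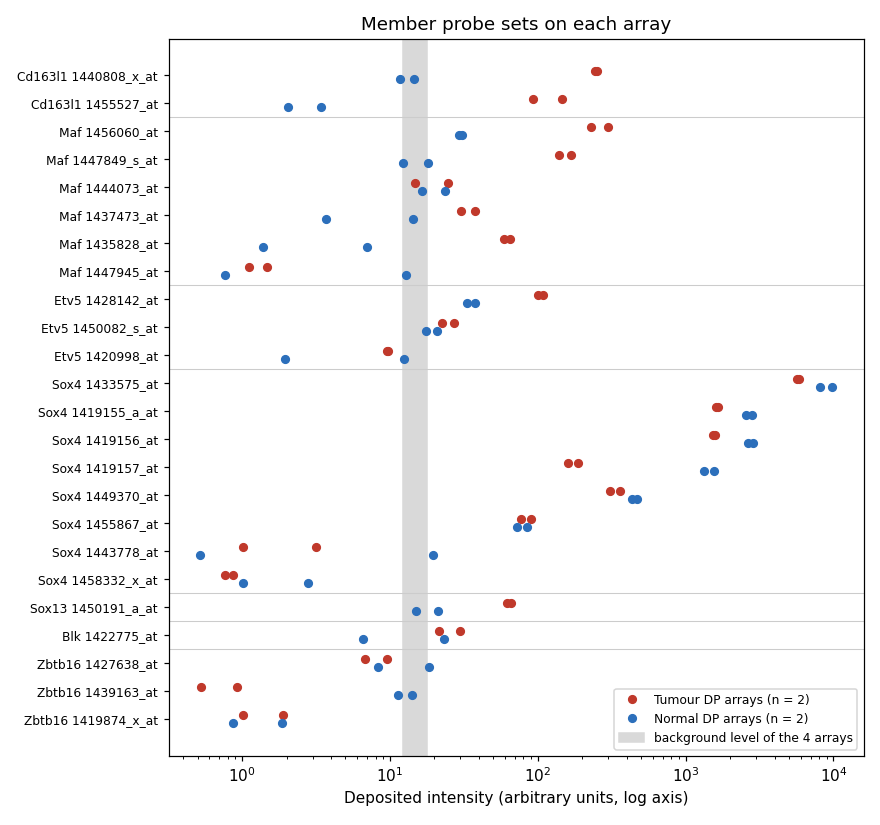
Deposited intensity (arbitrary units, log axis) of the 24 member probe sets on the 2 tumour DP arrays (red) and the 2 normal DP arrays (blue), with the range of the background levels of the 4 arrays in grey. Both Cd163l1 probe sets and the most intense Maf probe set lie far to the right on the tumour arrays, 5 of the Sox4 probe sets lie to the left, and Zbtb16 sits in or below the grey band in both groups apart from 1 normal array at 18.3.

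Start-site windows are shown first because Sox13 and Etv5, which rose, and Sox4, which fell, share the same short motif. RefSeq's table of GRCm38.p6 held windows, 250 bases before to 50 bases after a start, for 4 of the 7 genes: Cd163l1, Etv5 (with 2 starts), Sox4 and Sox13. Capitals mark TGGGAA on either strand, the core of sites bound by RBPJ, the DNA-binding partner of Notch1-IC. They are written 5′ to 3′ on the strand of the gene. The windows lie at chr7:140218017-140218316 (plus strand) for Cd163l1, chr16:22439521-22439820 and chr16:22438319-22438618 (minus) for Etv5, chr1:133424163-133424462 (minus) for Sox13 and chr13:28953650-28953949 (minus) for Sox4.
Cd163l1: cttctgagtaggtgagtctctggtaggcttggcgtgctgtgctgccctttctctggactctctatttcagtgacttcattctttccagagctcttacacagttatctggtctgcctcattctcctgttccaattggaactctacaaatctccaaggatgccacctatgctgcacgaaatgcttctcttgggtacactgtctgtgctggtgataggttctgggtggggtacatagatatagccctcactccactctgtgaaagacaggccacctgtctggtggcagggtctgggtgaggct
Etv5, first start: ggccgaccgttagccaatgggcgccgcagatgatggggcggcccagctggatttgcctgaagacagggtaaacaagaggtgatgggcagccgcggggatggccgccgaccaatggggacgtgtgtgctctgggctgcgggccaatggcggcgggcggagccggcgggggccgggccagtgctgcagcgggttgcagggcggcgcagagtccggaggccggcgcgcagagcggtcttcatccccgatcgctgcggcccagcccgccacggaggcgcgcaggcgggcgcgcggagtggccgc
Etv5, inner start: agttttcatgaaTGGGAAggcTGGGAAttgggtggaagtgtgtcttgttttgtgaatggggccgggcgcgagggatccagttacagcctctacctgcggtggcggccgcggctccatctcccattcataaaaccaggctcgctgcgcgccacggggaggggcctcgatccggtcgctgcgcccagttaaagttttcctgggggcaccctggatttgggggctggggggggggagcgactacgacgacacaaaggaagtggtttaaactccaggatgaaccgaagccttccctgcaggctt
Sox13: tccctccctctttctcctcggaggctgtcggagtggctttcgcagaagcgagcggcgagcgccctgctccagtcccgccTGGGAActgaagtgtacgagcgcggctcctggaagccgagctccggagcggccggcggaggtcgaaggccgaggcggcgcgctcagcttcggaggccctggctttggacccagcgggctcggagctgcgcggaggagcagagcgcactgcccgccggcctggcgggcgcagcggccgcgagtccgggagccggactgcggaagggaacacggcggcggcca
Sox4: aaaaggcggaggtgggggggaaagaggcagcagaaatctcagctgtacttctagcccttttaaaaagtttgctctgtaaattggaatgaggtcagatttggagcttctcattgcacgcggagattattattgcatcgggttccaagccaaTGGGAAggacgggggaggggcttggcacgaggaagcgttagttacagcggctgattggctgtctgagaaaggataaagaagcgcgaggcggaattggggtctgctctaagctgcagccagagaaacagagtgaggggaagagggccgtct

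The motif stood in 3 of these 5 windows. It lay 171 bases before the start of Sox13, 100 bases before that of Sox4, and 238 and 229 bases before the inner start of Etv5. It was not in the window of Cd163l1 or of the first Etv5 start. TGGGAA is common, with a match in 25.6% of all 32851 windows of the same length. CANNTG, the E box, matched 72.3% of all windows and was present in those of Cd163l1, Sox4 and the first Etv5 start. ACAAAG, a motif of the kind read by TCF and SOX proteins, matched 18.7% of all windows and, here, the inner Etv5 start. No TGGGAA match overlapped one of the other motifs. A match is a string of letters and not a bound site, and it was found beside genes that rose (Sox13, Etv5) as well as beside Sox4, which fell.

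Cd163l1, on chromosome 7, had the largest difference of the 7 genes. Its probe set 1440808_x_at read 245 and 250 in the tumour arrays, against 11.7 and 14.6 in the normal arrays. Both tumour arrays thus lay far above both normal arrays, of which 1 was at or below background. The log2 fold change was 4.24 ± 0.26 (SE, n = 2 arrays per group, limma adjusted p = 3.72e-06). This probe set is of the _x_at class, whose probes may also bind other transcripts. The second, 1455527_at, is not of that class and read 145 and 93.4 in the tumour arrays, against 3.42 and 2.05 in the normal arrays. Both normal arrays were at or below background there, so the difference is given as at least 8.31-fold (adjusted p = 9.34e-05). The 2 probe sets gave the same direction, and the call of each was kept when any single array was left out.

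The transcription factor genes began with Maf, a basic leucine zipper factor on chromosome 8, measured by 6 probe sets. The most intense, 1456060_at, read 230 and 298 in the tumour arrays, against 29.3 and 30.8 in the normal arrays, all above background. The groups stood well apart, with a log2 fold change of 3.12 ± 0.22 (limma adjusted p = 7.38e-06). Probe set 1447849_s_at read 138 and 168 in tumour, against 18.2 and 12.2 in normal, with 1 normal array at or below background (3.35 ± 0.32, adjusted p = 4.72e-05). Probe set 1435828_at read 58.95 and 64.8 in tumour, against 6.98 and 1.38 in normal, both of these at or below background. That difference is at least 4.42-fold (adjusted p = 0.00399), and the call was lost without tumour replicate 1 (adjusted p = 0.0682) and without tumour replicate 2 (0.0819).

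The other 3 Maf probe sets were not called. On 1437473_at the tumour arrays read 37.7 and 30.2, against 3.67 and 14.4 in normal, which did not overlap but missed the threshold (2.21 ± 0.74, limma adjusted p = 0.0601). It passed with an offset of 16 before log2 (adjusted p = 0.0377), without the dimmest 30% of probe sets (0.0444), and without normal replicate 2 (0.0269), and also once values below background were raised to it. On 1444073_at the groups overlapped, at 24.7 and 14.7 in tumour against 16.6 and 23.5 in normal. Its difference of -0.05 has an interval of -1.25 to 1.15 (log2), at a signal close to background. On 1447945_at no array was above background.

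Sox13, an HMG-box factor on chromosome 1, had 1 probe set, 1450191_a_at. It read 66.1 and 62.0 in the tumour arrays, against 15.0 and 21.0 in the normal arrays, where normal replicate 1 was at or below background. The tumour arrays were close to each other and both above the normal ones. The log2 fold change was 1.85 ± 0.36 (limma adjusted p = 0.00433), and between 1.61 and 2.09 with single arrays left out, a call each time.

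Etv5, an ETS-family factor on chromosome 16, was called on 1 of its 3 probe sets. That one, 1428142_at, read 101 and 109 in the tumour arrays, against 37.4 and 33.4 in the normal arrays. Its groups were all above background and separate, with a log2 fold change of 1.57 ± 0.25 (limma adjusted p = 0.00127). On 1450082_s_at the values were 22.5 and 27.2 in tumour against 20.9 and 17.6 in normal, close to background, with an interval of -0.67 to 1.40 (log2) around a difference of 0.36. On 1420998_at both tumour arrays and 1 normal array were at or below background. Averaged over its 3 probe sets, Etv5 differed by 0.97 and was not called (adjusted p = 0.218). With spike scaling, 1428142_at differed by 0.97 (adjusted p = 0.0152).

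Sox4, another HMG-box factor, on chromosome 13, ran the other way. The most intense of its 8 probe sets, 1433575_at, read 5635 and 5871 in the tumour arrays, against 8122 and 9765 in the normal arrays. The groups did not overlap, and the log2 fold change was -0.63 ± 0.08 (limma adjusted p = 0.000319). Probe set 1419155_a_at read 1662 and 1611 in tumour, against 2795 and 2543 in normal (-0.70 ± 0.08). Probe set 1419156_at read 1592 and 1527 in tumour, against 2639 and 2869 in normal (-0.82 ± 0.08, adjusted p = 3.96e-05). On these 3 probe sets the tumour level of Sox4 was 0.57 to 0.65 of the normal level, and far above background.

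A far larger fall was read by 1 Sox4 probe set. On 1419157_at the tumour arrays read 187 and 161, against 1546 and 1338 in the normal arrays. The groups were far apart, with a log2 fold change of -3.05 ± 0.12, an 8.30-fold lower level in tumour (limma adjusted p = 3.28e-07). Its 95% interval, -3.33 to -2.78, does not meet those of the 3 brighter probe sets, which together span -0.99 to -0.45. The platform table gives 1419155_a_at, 1419156_at, 1419157_at and 1449370_at the same accession, and where each lies on the transcript was not used here. Control probe sets at the 3' end of a transcript, relative to those at its 5' end, were brighter in the tumour arrays, with ratios of 2.46 and 2.53 against 1.28 and 1.20 in normal for beta-actin and of 1.84 and 1.85 against 0.91 and 0.90 for Gapdh. The part of this in the Sox4 difference between probe sets, or in any other difference between the groups, was not tested.

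Of the remaining Sox4 probe sets, 1 was called. Probe set 1449370_at read 360 and 310 in tumour, against 469 and 437 in normal (-0.44 ± 0.12, limma adjusted p = 0.0288). Its call was kept without tumour replicate 1 but lost without tumour replicate 2 (adjusted p = 0.185), normal replicate 1 (0.179) or normal replicate 2 (0.0876). On 1455867_at the groups overlapped, at 89.9 and 77.0 in tumour against 72.9 and 84.6 in normal. Of 1443778_at and 1458332_x_at, only normal replicate 1 on the first (19.4) was above background. Over the mean of its 8 probe sets Sox4 was lower by -0.93 on the log2 scale (adjusted p = 0.0155).

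Blk, a Src-family tyrosine kinase on chromosome 14, had 1 probe set, 1422775_at. It read 21.5 and 29.9 in the tumour arrays, against 6.53 and 23.3 in the normal arrays. The groups overlapped, since normal replicate 2 lay between the tumour arrays, and normal replicate 1 was below background. The log2 difference was 1.04 ± 0.68 (limma adjusted p = 0.360), with a 95% interval of -0.51 to 2.58, so differences within that range are not excluded.

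Zbtb16, a zinc finger factor of the BTB family on chromosome 9, was at or below background in both tumour arrays on all 3 of its probe sets. Probe set 1427638_at read 6.73 and 9.58 in tumour, against 8.33 and 18.3 in normal, with overlapping groups. Probe set 1439163_at read 0.53 and 0.93 in tumour, against 11.4 and 14.02 in normal, of which only normal replicate 2 was above background. It counts among the 6 lower calls, at a limma adjusted p of 0.0489 and a log2 value of -4.17 ± 1.32. The normal arrays lay so near background that no fold is given, and the value was 0.04 once values below background were raised to it. The call was also lost with an offset of 16 before log2 (adjusted p = 0.0763), in the fit that dropped the _s_at and _x_at classes (0.0512) and without any single array (0.100 to 0.161). On 1419874_x_at all 4 arrays were below background, between 0.87 and 1.88.

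**Figure D2:**
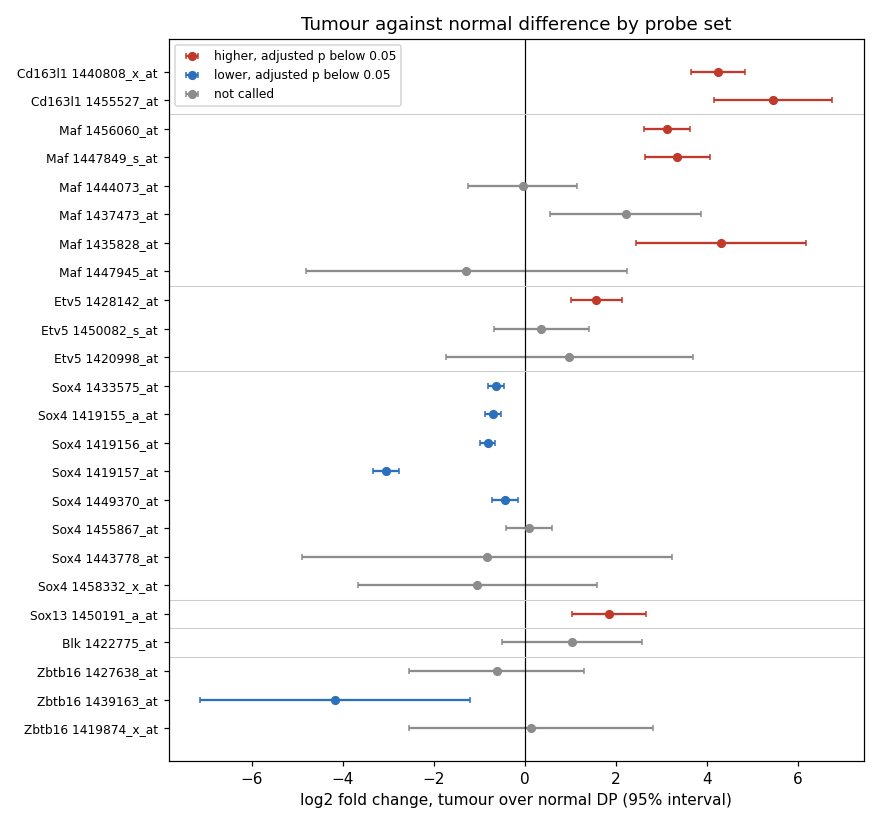
Log2 fold change of tumour over normal DP (points) with the 95% interval from limma (bars) for the 24 member probe sets, red where called higher, blue where called lower and grey where not called. Intervals are narrow for the bright Sox4 probe sets and several log2 units wide for those near background, and 1419157_at of Sox4 (-3.05) stands apart from the brighter 3 (-0.63 to -0.82).

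Genes that work with the members were described by lists chosen with earlier results of these data known, each gene on its most intense probe set. The gamma chain genes Trgv1 and Trgv4 were the only measured ones of their list and both rose. Trgv1 read 1081 and 1017 in tumour, against 17.95 and 24.95 in normal, a log2 fold change of 5.63 ± 0.19 (limma adjusted p = 1.5e-07). Trgv4 read 794 and 890 in tumour, against 83.05 and 75.6 in normal (3.41 ± 0.14, adjusted p = 3.22e-07), on a probe set of the _x_at class. Variable segments of 1 locus resemble each other, so their signals may not be independent.

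Of 21 measured genes of the IL-17 programme, 10 were called higher and 0 lower, where 16.3% and 11.7% of all genes were. The median log2 fold change was 1.39, against 0.09 over all genes. Il2ra, the interleukin 2 receptor alpha chain, read 1298 and 1522 in tumour against 24.1 and 24.3 in normal (5.86 ± 0.15). Il1r1, the interleukin 1 receptor, was below background in both normal arrays, and its tumour level was at least 6.73-fold higher (limma adjusted p = 0.00035). Sdc1, the proteoglycan syndecan 1, rose by 4.79 ± 0.20, and Ahr, a ligand-bound transcription factor of IL-17 producing cells, by 2.81 ± 0.21. The scavenger-receptor relative 5830411N06Rik (Scart2), singled out after its values were seen, read 153 and 148 in tumour against 22.6 and 23.8 in normal (2.70, adjusted p = 4.07e-05). Il17a itself lay above background on 1 tumour array only, at 7.72 and 23.0 in tumour against 6.23 and 12.3 in normal, and was not called (adjusted p = 0.707). Il17re (-0.78), Rora (-0.57) and Cd44 (-0.46), singled out after their values were seen, were lower in tumour without overlap but were not called. Ccr6 read 18.35 and 6.42 in tumour against 6.98 and 18.93 in normal, with 1 array of each group below background. Its difference of -0.08 has an interval of -2.07 to 1.90 (log2). With spike scaling 9 of the 21 were called higher and 4 lower, namely Il17re, Rora, Cd44 and Stat3. Under that scaling 2074 of all 45037 probe sets were higher and 11539 lower, so lower calls were common throughout.

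The NKT and type 1 and 2 innate list was mixed, with 12 of 30 genes higher and 7 lower. Of all genes, 16.3% were higher and 11.7% lower. The median of the list was 1.23. Il2rb, a receptor chain for interleukins 2 and 15, rose by 4.33 ± 0.55 (1 of 2 normal arrays at or below background). Ccl5, a chemokine, read 103 and 106 in tumour against 1.38 and 25.3 in normal (limma adjusted p = 0.0182, and 0.0534 with spike scaling). Normal replicate 1 was below background there, so no fold is given. Fcer1g, an Fc receptor chain shared with myeloid cells, was at least 7.90-fold higher, and Cd160, a receptor of NK and some T cells, rose by 3.52 ± 0.24. The 7 that fell were singled out after their values were seen: Slamf1, Egr2, Sh2d1a, Cd1d1, Id3, Slamf6 and Cd27. Their log2 fold changes ran between -0.60 and -1.99. Fyn, a kinase that works with the adaptor encoded by Sh2d1a, was among the 12 that rose (1.52 ± 0.11). With spike scaling 8 of the 30 were higher and 7 lower, where 2074 and 11539 of all 45037 probe sets were. Gata3, called higher by 0.57, turned to -0.04 under it.

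Relatives of the members were measured as well. Of 19 genes in the list of closest paralogues, 4 rose and 2 fell, with a median of 0.13, which lies near the 0.09 of all genes, as the counts lie near the 16.3% higher and 11.7% lower of all genes. Cd163, the scavenger receptor nearest in name to Cd163l1, is also a macrophage gene. It was below background in both normal arrays, with a tumour level at least 11.7-fold higher (limma adjusted p = 0.000131). Cd5 and Cd6, lymphocyte receptors with scavenger domains, fell by 2.45 ± 0.11 and 1.58 ± 0.10 on the log2 scale. Mafg, a small Maf protein, rose by 1.76 ± 0.27. Sox5, Sox6, Sox11 and Sox12 were not above background on either tumour array and were not called, nor was Etv4. Sox6 and Sox12 were above background on both normal arrays. Sox12 read 9.38 and 11.9 in tumour against 24.0 and 23.7 in normal, and was called lower with spike scaling (limma adjusted p = 0.0433). Of 19 early T-lineage factors, 6 rose and 1 fell, with a median of 0.29, led by Tox2, an HMG-box factor (4.17 ± 0.15), and Runx3, which read 237 and 257 in tumour against 96.7 and 78.4 in normal. The smaller rises of Gata3 (0.57) and Tcf12 (0.40) became -0.04 and -0.20 with spike scaling, under which 2 of the 19 were higher and 7 lower. Of all 45037 probe sets, 2074 were higher and 11539 lower under that scaling.

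**Figure D3:**
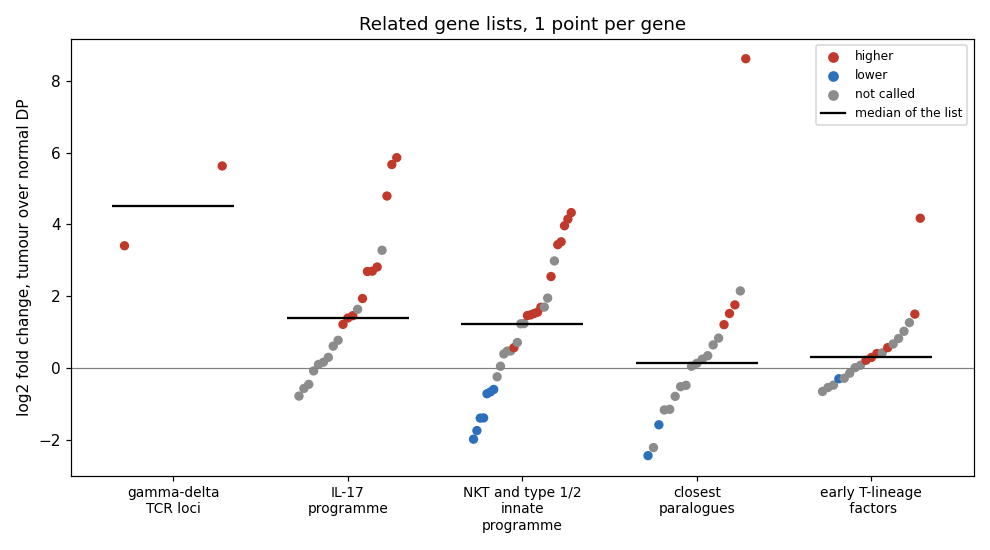
Log2 fold change of tumour over normal DP for the genes of the 5 related lists, 1 point per gene on its most intense probe set, red where called higher, blue where called lower, grey where not called, with the median of each list as a bar. The medians are 1.39 for the IL-17 programme and 1.23 for the NKT list, and 0.13 and 0.29 for the paralogues and the early T-lineage factors.

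The cell type label and the markers of other cells were set beside these results. Of 15 DP thymocyte markers, 14 were above background on all 4 arrays, so the DP programme was measured in both groups. The exception was the probe set annotated Tcra, near background throughout. In the tumour arrays 12 of the 15 fell, where 11.7% of all genes did. Among them were Cd8a (-2.75 ± 0.07), Cd8b1 (-2.19 ± 0.08), Cd4 (-2.09 ± 0.11) and Rag2 (-1.92 ± 0.10). Ptcra, the pre-TCR alpha chain, rose. The summed level of the list was 31010 and 31562 in tumour, against 76118 and 77796 in normal.

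Of 14 macrophage markers, 11 rose and 0 fell, where 16.3% of all genes rose and 11.7% fell. Their summed level was 2462 and 2622 in tumour, against 136 and 206 in normal. Csf1r, the macrophage growth factor receptor, read 550 and 625 in tumour against 20.5 and 17.9 in normal (4.94 ± 0.19). The complement genes C1qc and C1qa and the mannose receptor Mrc1 were at least 11.9-fold, 16.3-fold and 26.2-fold higher, and Trem2 was not above background on any array. Of 8 neutrophil markers 7 rose, with sums of 2110 and 2188 in tumour against 182 and 225 in normal. Among them S100a8 read 1100 and 1164 in tumour against 73.25 and 100 in normal (3.72 ± 0.16). Ltf, below background in both normal arrays, was at least 2.85-fold higher. Mmp9 and Camp also rose, each with 1 normal array at or below background. The part of these cells in the rises of Maf, Cd163l1, Etv5 and Sox13 was not tested.

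Of 7 NK and innate lymphoid markers, Il2rb and the granzyme Gzma (2.28 ± 0.07) rose and 0 fell. Among all genes 16.3% rose and 11.7% fell. The defining receptors Ncr1, Klre1 and Klra8 were not above background on any array. The list summed to 5299 and 5328 in tumour against 1137 and 1118 in normal. Most of that sum was Gzma alone, at 5030 and 5040 in tumour against 1034 and 1035 in normal. Of 10 B-cell markers, Cd22 rose (2.63 ± 0.41), Cd79b fell (-2.42 ± 0.18) and Ighm fell (-0.88 ± 0.08), counts that lie near those shares. For Cd22, normal replicate 1 (9.77) was below background. The list summed to 2888 and 2698 in tumour against 5468 and 4818 in normal. Most of that sum was Ighm alone, at 2662 and 2463 in tumour against 5040 and 4425 in normal. Cd79a and Pax5 were not above background on any array, and Ms4a1 on 1 tumour array. Blk, which B cells also express, was likewise close to background.

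**Figure D4:**
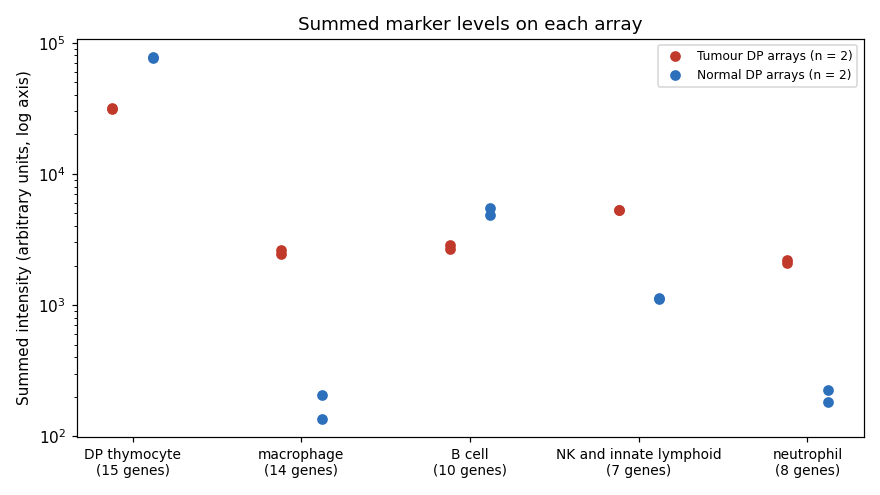
Summed intensity (arbitrary units, log axis) of the 5 marker lists on each of the 2 tumour DP arrays (red) and the 2 normal DP arrays (blue), each gene on its most intense probe set. The DP list is lower in tumour (31010 and 31562 against 76118 and 77796), and the macrophage and neutrophil lists are higher. The NK and innate lymphoid sum is mostly Gzma, and the B-cell sum is mostly Ighm.

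The genes whose profile over the 4 arrays was most like that of each member were found by distance between log2 values centred on their mean, among genes with a mean log2 of at least 7. Among the members only Sox4 (12.8) reached that floor itself. Genes as dim as the other members could therefore not be named here. For Cd163l1 these were Gfra1 (distance 0.17) and Gpr25 (0.27), for Maf Ndrg1 (0.22) and Mboat2 (0.23), and for Etv5 Chd3 (0.02) and Washc4 (0.05). For Sox4 they were Rab6a (0.03) and Slc44a2 (0.03), and for Sox13 Msto1 (0.06) and Apex1 (0.09). For Blk the closest were Snrnp40 (0.50) and Ccdc34 (0.52), and for Zbtb16 Kif5b (0.23) and Wdr48 (0.28), both members being near background. Gfra1, a receptor for glial-derived growth factor, read 1325 and 1197 in tumour, against 64.2 and 71.8 in normal, a log2 fold change of 4.21. The likeness is over the same 4 arrays of 2 groups, and the values of each pair share those arrays.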

How the data were processed

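RNA of DP cells was turned into biotin-labelled cRNA with a 3' in vitro transcription kit for the arrays (per the labels). The file the authors deposited holds linear intensity values, 1 for each probe set on each array. The tool RMA comes, without a version, from the submitters' processing notes. RMA usually gives log2 values, and these are linear and reach below 1, so how probes were summarised is not settled, which touches the log2 differences of dim probe sets most. On the deposited scale the 4 arrays share nearly the same distribution, so a shift common to all genes is hidden. Groups follow the sample titles.

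Log2 was taken with no offset. The 64 control probe sets were left out of the tests, and 45037 were fitted with limma 3.58.1 in R 4.3.3 (lmFit, eBayes with trend and robust), adjusted by Benjamini-Hochberg at 0.05. The prior added 7.27 degrees of freedom (median), against 1.07 with the default. The median replicate SD (log2) was 1.31 in the dimmest of 4 equal bins of probe sets and 0.10 in the brightest, which is why the prior follows intensity. Symbols are those of the platform annotation, and 34945 probe sets had 1 symbol. The 7 symbols also stand in RefSeq's GRCm38.p6 table, used for chromosomes. The code was also run on simulated data whose noise followed intensity, as this prior assumes. That run therefore cannot tell which prior is right for these arrays.

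"At least N-fold" sets the mean of 1 group against the other group's arrays raised to background. Named genes are all members, up to 4 called genes with the largest change of each list (2 where none was called), and the 2 most alike genes of each member. The members, lists and tests were chosen with earlier results of these data known. List genes with no probe set of their own here were not analysed.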

Additional observations from a re-analysis of the deposited data

How the results depend on the processing

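Member counts of 7 higher and 6 lower stayed within 1.5 times (5 to 8 higher, 4 to 6 lower) under the offset, raised low values, the dim filter, median, quantile and spike scaling, a threshold of 0.01, no _s_at or _x_at probe sets, the replicate block and single arrays left out. With the default prior, member, all and list counts were all 0. Counted as genes, members gave 4 higher and 1 lower (3156 and 2251 of all genes) on 1 probe set per gene, and 3 and 1 (1865 and 1764) on the mean of probe sets. Spike scaling gave 2074 higher and 11539 lower of all probe sets, 4 lower in the IL-17 list, 4 lower among paralogues, and 2 higher and 7 lower early T-lineage factors (list counts under this scaling were added after seeing the data). The mean of probe sets gave 1 lower in the IL-17 list and 3 higher and 2 lower early T-lineage factors. Leaving out 1 array gave 6 to 8 higher and 4 to 5 lower members, and 3325 to 3983 higher and 3184 to 4386 lower of all probe sets. The value of 1439163_at of Zbtb16 turned to 0.042 with low values raised to background, since both groups then lie at that level. No label pairs the arrays by replicate number. The log2 difference between replicates 1 and 2 in tumour correlated at 0.25 with that in normal, over 10772 probe sets with a mean log2 of at least 7. Background was higher on both replicate 1 arrays (17.8 in tumour, 15.95 in normal) than on both replicate 2 arrays (13.3 and 12.3). What same-numbered arrays share was not tested. The replicate block gave 8 higher (with 1437473_at of Maf at an adjusted p of 0.0156 by limma) and 6 lower members and 6125 and 6319 of all probe sets. Signal near background limits Blk, Zbtb16 and the dim probe sets of Maf, Etv5 and Sox4.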

Other observations

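Protein-coding genes next to the members in RefSeq's order were also measured, 9 of them with a probe set of their own. Of these, Wwox, beside Maf, read 64.9 and 68.0 in tumour, against 26.03 and 38.9 in normal, and rose by 1.06 ± 0.32 on the log2 scale (limma adjusted p = 0.0374). Tra2b, a splicing regulator beside Etv5, read 2883 and 2973 in tumour, against 3646 and 3975 in normal, and fell by 0.38 ± 0.07 (adjusted p = 0.00256), the opposite direction to Etv5. The other 7 were not called: Dynlrb2 beside Maf, Prl5a1 and Cdkal1 beside Sox4, Snrpe beside Sox13, Gata4 and Fam167a beside Blk, and Nnmt beside Zbtb16.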
